A study of Homo sapiens with 32 samples.

Results

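Neuroendocrine markers were followed as a panel of 8 genes in LNCaP cells moved from complete to steroid-depleted serum and then exposed to growth factors. The panel consisted of *ENO2*, *TUBB3*, *SYP*, *CHGA*, *CHGB*, *SCG2*, *NTS*, and *REST*, taken by gene symbol, and all 8 were found among the 25498 genes of the tables. A gene was tested if 3 or more of the 32 libraries held 5 or more of its counts. That held for 16995 genes, 7 of the panel among them, and *CHGA* was not tested. LNCaP is a human prostate adenocarcinoma cell line from a lymph node metastasis that has luminal features and depends on androgen. The FBS group was grown in medium with fetal bovine serum, and the CSS group in medium with charcoal-stripped serum, from which steroids have largely been removed. By the methods of the study, cells were put in CSS medium the day after plating and given ligand the next day. Longer times in CSS were not part of these samples. A legend of the study describes the cells as starved of serum overnight, whereas the labels and methods give CSS medium, and the labels are followed here. The other 6 groups were CSS cultures given 100 ng/mL EGF, a ligand of EGFR, or 100 ng/mL NRG-1, a ligand of HER3 and HER4, for 5 min, 1 h, or 4 h. Each of the 8 groups had 4 libraries, with replicates 1 and 2 in batch 1 and replicates 3 and 4 in batch 2. The labels number the replicates 1 and 2 within each batch. They do not say that same-numbered libraries are matched beyond the batch, so that counts of pairs are descriptive. The labels do not say whether replicates were separate cultures, so that P values measure the spread between these libraries, which may be technical. CSS differed from FBS in everything that charcoal removes. The methods also give washes and a change of medium for the move to CSS, and do not describe the handling of the FBS group. The ligand groups were compared with the same untreated CSS group at all times. Androgen, other serum components, and handling, or ligand and time of handling, thus cannot be told apart here.

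Neuroendocrine prostate cancer is recognized by proteins of the regulated secretory pathway and of neurons. Chromogranins and secretogranins are stored in dense-core granules together with peptide hormones, synaptophysin sits in the membrane of small vesicles, and neuron-specific enolase and class III beta-tubulin are cytoplasmic proteins that are less specific to these cells. REST is a zinc finger repressor that binds RE1 elements and keeps neuronal genes silent outside the nervous system, and its loss is a known route to a neuroendocrine program. Androgen deprivation of LNCaP cells is a common model for the appearance of such markers.

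Levels were compared between genes in TPM, which accounts for transcript length. The panel split into 3 abundant genes and 5 scarce ones. The mean over the 32 libraries was 31.3 TPM for *ENO2* (range 9.88 to 66.5), 22.7 TPM for *TUBB3* (7.30 to 44.5), and 20.0 TPM for *REST* (9.08 to 28.6). *SYP* stood at 1.21 TPM (0.86 to 1.53) and *NTS* at 0.566 TPM (0.02 to 1.14). *SCG2* had 0.0513 TPM, *CHGB* 0.0278 TPM, and *CHGA* 0.0138 TPM. *ENO2* was above 82.4% of all genes in the tables by mean TPM, and *SYP* was above 51.7%. The granule proteins, which are the most specific neuroendocrine markers of the panel, were thus its least abundant transcripts in every group.

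The library totals ran from 63822654 to 92401724 expected counts, and 3 counts, taken as the floor, corresponded to between 0.0310 and 0.0504 CPM, the count scaled to a common library size. Markers of luminal prostate cells were present in all libraries, and the 11 of them summed to between 3368.97 and 6438.71 TPM. The 10 markers of basal, immune, fibroblast, and endothelial cells summed to between 6.64 and 20.5 TPM. The FBS library of replicate 4 had the lowest total, and the lowest CPM of its group for *ENO2*, *TUBB3*, *NTS*, and *REST*, and the 6 panel genes called between CSS and FBS were called without it as well.

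Promoter sequences of the 3 abundant genes (for *ENO2*, the matched sites) and of *CHGA* are shown because they set the genes that responded to the ligands beside a granule gene that stayed at the floor. They were taken from RefSeq (GRCh38.p14, 250 bases before to 50 after each start), in which 6 of the 8 genes had an entry and *CHGB* and *SCG2* had none. Motifs of factors that growth factor signaling or cAMP is known to engage (AP-1, TGANTCA; EGR, GCGNGGGCG; CRE, TGACGTCA) and the arms of the RE1 element (TTCAGCACC and GGACAGCGC) were searched on both strands, and matches are in capitals. Among 35116 promoter windows, 7.709% held the AP-1 motif, 9.434% the EGR motif, 1.848% the CRE motif, 0.376% the left arm of RE1, and 0.581% its right arm. Upstream of its main start, on the plus strand, *ENO2* held an AP-1 match from -94 to -88, shown within chr12:6914475-6914504. It also held an EGR match from -66 to -58, shown within chr12:6914504-6914533. Part of the 250 bases before this start lies in an exon of another annotated transcript of the gene, so that only the sites are shown. The *TUBB3* promoter at chr16:89923092-89923337 (plus strand) held no match before its main start. The *REST* promoter at chr4:56907650-56907875 (plus strand) held EGR matches, and the *CHGA* promoter at chr14:92922900-92923149 (plus strand) held a CRE and an EGR match.
ENO2 AP-1 site: ccggcagctccTGACTCAtcgggggctccg
ENO2 EGR site: gggtcacatgCGCCCGCGCggccctatagg
TUBB3 promoter: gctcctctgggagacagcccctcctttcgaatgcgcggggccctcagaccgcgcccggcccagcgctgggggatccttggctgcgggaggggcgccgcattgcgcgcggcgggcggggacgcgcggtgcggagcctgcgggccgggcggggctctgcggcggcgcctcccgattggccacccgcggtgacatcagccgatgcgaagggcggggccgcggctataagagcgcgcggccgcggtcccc
REST promoter: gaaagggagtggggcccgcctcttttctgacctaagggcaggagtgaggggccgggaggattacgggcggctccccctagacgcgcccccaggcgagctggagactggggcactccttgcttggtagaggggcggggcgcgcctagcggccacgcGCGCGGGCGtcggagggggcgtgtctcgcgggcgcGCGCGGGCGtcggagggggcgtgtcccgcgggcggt
CHGA promoter: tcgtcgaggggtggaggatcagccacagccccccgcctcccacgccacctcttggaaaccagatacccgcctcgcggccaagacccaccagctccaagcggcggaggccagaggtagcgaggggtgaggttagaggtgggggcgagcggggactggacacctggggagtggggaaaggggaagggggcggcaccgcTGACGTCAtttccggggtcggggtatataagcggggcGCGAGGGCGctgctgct
The *TUBB3* window at its main start held an EGR match from base 19 to base 27 after the start, and an AP-1 match lay only at its other start. *REST* also had an AP-1 match, from -211 to -205, and an EGR match after the start, from 26 to 34, at its other start. *SYP*, which passed no test with either ligand, held an EGR match from -53 to -45 and an AP-1 match from 35 to 41 around its start. No window of the panel held either arm of RE1, and *NTS* held none of the motifs; matches to different motifs did not overlap. A match describes letters and says nothing of whether a factor was bound.

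*ENO2*, which encodes neuron-specific enolase, a glycolytic enzyme of neurons and neuroendocrine cells, rose from FBS to CSS and rose again after 4 h of either ligand. In FBS its levels were 32.6, 28.6, 20.6, and 17.6 CPM in replicates 1 to 4, and in CSS they were 40.0, 39.7, 29.9, and 26.8 CPM. The CSS library was the higher in 4 of 4 same-numbered pairs, although the groups overlapped, because batch 2 lay below batch 1 throughout (log2 difference -0.53, adjusted P = 1.10e-12). The log2 fold change was 0.47 ± 0.07 (SE, adjusted P = 2.73e-06), and without the batch term it was 0.46 and not called (adjusted P = 0.0847). The libraries of EGF at 4 h stood at 92.5, 88.4, 63.1, and 60.6 CPM, and those of NRG-1 stood at 80.5, 75.9, 55.5, and 46.5 CPM. Neither range touched that of CSS, and the log2 fold changes were 1.15 ± 0.07 for EGF (adjusted P = 8.40e-14) and 0.91 ± 0.07 for NRG-1 (adjusted P = 1.88e-11). At 5 min and 1 h the group means lay between 33.8 and 34.8 CPM, beside 34.1 CPM in CSS, and no call was made. For EGF at 1 h, the 95% interval of the log2 change ran from -0.10 to 0.19.

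*TUBB3* encodes class III beta-tubulin, the tubulin of neuronal microtubules. Its levels were 17.1, 15.2, 10.6, and 9.16 CPM in FBS and 19.1, 16.8, 16.5, and 15.5 CPM in CSS. CSS was higher in every pair, by a log2 change of 0.39 ± 0.10 (adjusted P = 0.00193), but the groups overlapped. The rise was uneven between batches, at 0.15 in batch 1 (adjusted P = 0.249) and 0.69 in batch 2 (adjusted P = 0.000321). The difference between the batches was 0.54 on the log2 scale (edgeR, unadjusted P = 0.00132, adjusted P = 0.286). This test was added after these values were seen, so that its unadjusted P value cannot be taken at face value. In it, 0.0824% of all genes differed in this way. At 4 h its EGF libraries held 43.7, 38.6, 40.3, and 40.2 CPM, and its NRG-1 libraries held 32.0, 31.3, 28.8, and 29.3 CPM. All 8 of these libraries lay above every CSS library, and the log2 changes were 1.26 ± 0.10 (adjusted P = 2.00e-11) and 0.84 ± 0.10 (adjusted P = 7.91e-08). The expected count of *TUBB3* was not an exact whole number in 30 of 32 libraries, so that some of its reads were assigned to it in part, and the tables do not show where the rest went. The other panel genes had whole counts in all 32.

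*REST*, the repressor of neuronal genes, rose in CSS and again at 4 h. It stood at 74.9, 64.5, 61.3, and 51.0 CPM in FBS and at 81.3, 86.7, 80.3, and 76.8 CPM in CSS, without overlap (log2 change 0.37 ± 0.08, adjusted P = 0.000127). It reached 118, 110, 109, and 103 CPM after EGF for 4 h and 120, 114, 105, and 87.9 CPM after NRG-1 for 4 h. Each of these libraries was above the highest CSS library, and the log2 changes were 0.44 ± 0.07 (adjusted P = 1.54e-05) and 0.39 ± 0.07 (adjusted P = 0.000110). In batch 2 alone, the rise with NRG-1 was not called (adjusted P = 0.137) and neither was it with limma on TPM (adjusted P from 0.103 to 0.134). At the earlier times the *REST* means lay between 76.2 and 83.0 CPM, with no call.

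*SYP*, which encodes the vesicle protein synaptophysin, was the panel gene that fell in CSS. Its levels were 1.79, 2.05, 1.97, and 2.45 CPM in FBS and 1.66, 1.42, 1.50, and 1.63 CPM in CSS, without overlap. The log2 change was -0.40 ± 0.10 (adjusted P = 0.00122). It was -0.31 in batch 1 alone (adjusted P = 0.0962), which was not called. With limma it was -0.12 on log2(TPM + 1) and -0.19 on log2(TPM + 0.1), and neither was called. Mean TPM, with nothing added, went from 1.355 in FBS to 1.17 in CSS. The change was thus smaller on TPM than on CPM. The test and the value added differed as well in the limma fits, so that the loss of the call cannot be put down to the measure alone. In the ligand groups the *SYP* means lay between 1.49 and 1.73 CPM and passed no test, and the interval of the log2 change after EGF for 4 h ran from -0.27 to 0.15.

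**Figure D1:**
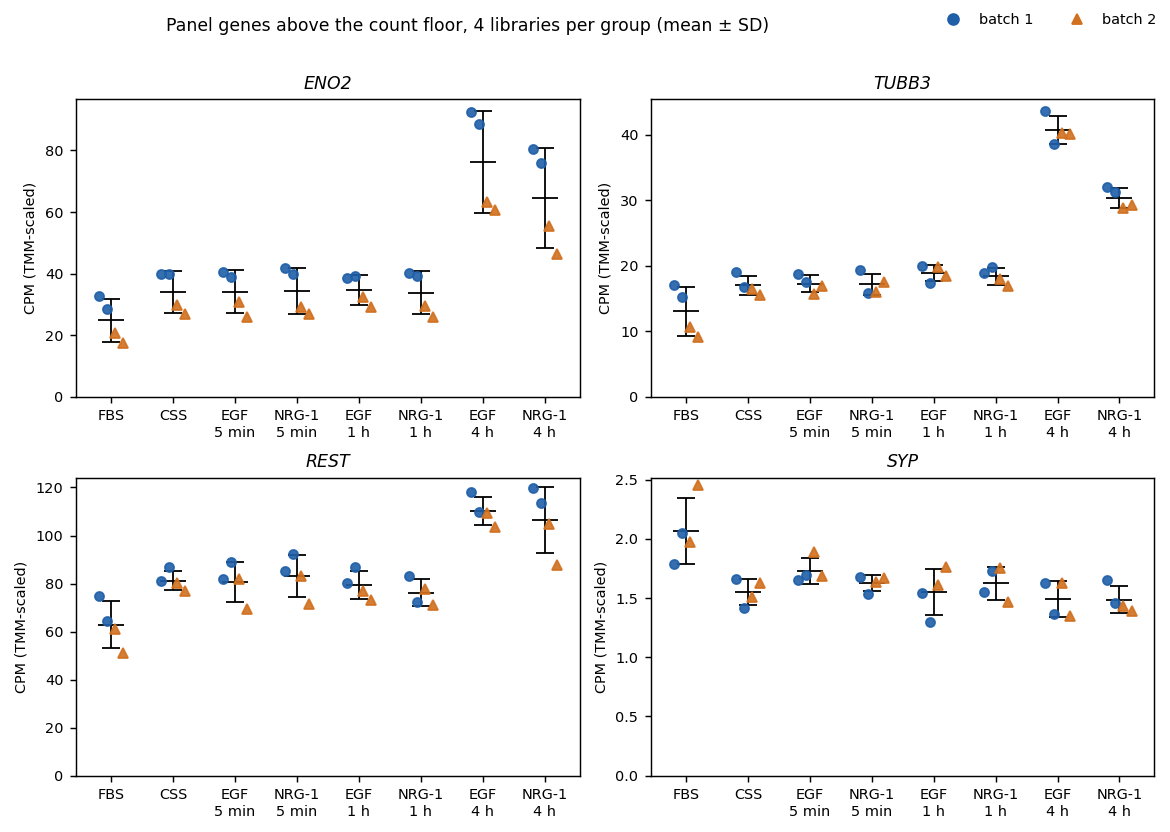
CPM (y axis) of *ENO2*, *TUBB3*, *REST*, and *SYP* in the 8 groups (x axis), with a point for each library, circles for batch 1, triangles for batch 2, and bars for the mean ± SD. The 4 h groups of *ENO2*, *TUBB3*, and *REST* stand above CSS, with means of 76.2 and 64.6 CPM beside 34.1 CPM for *ENO2*, whereas *SYP* is highest in FBS.

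*NTS* encodes neurotensin, a peptide with growth-promoting action on prostate cancer cells. Its counts were 16, 17, 6, and 1 in FBS and 49, 24, 23, and 17 in CSS. CSS was higher in 4 of 4 pairs, although its lowest library reached the FBS range, and the log2 change was 1.37 ± 0.46 (adjusted P = 0.0129). The call was lost without CSS replicate 1 (log2 change 1.07, adjusted P = 0.0746) and in batch 2 alone (adjusted P = 0.106). At 4 h the EGF libraries held 52, 45, 24, and 24 counts and the NRG-1 libraries 37, 38, 10, and 38, whereas NRG-1 at 1 h gave 22, 41, 27, and 67. These groups overlapped CSS and passed no test, and the interval of the log2 change at 4 h of EGF ran from -0.32 to 1.22.

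*CHGB*, a chromogranin of dense-core granules, had 0 to 7 counts per library. Its counts were 0, 1, 0, and 0 in FBS and 6, 5, 7, and 4 in CSS, so that every CSS library exceeded every FBS library. In sum, 22 counts stood against 1, a ratio per depth of 19.8 with an exact 95% counting interval from 3.20 to 817.5, and the fit gave an adjusted P value of 0.000101. Such intervals and floors cover counting error only. At 5 min the EGF libraries held 2, 1, 2, and 1 counts and the NRG-1 libraries 3, 3, 1, and 0, below all CSS libraries. The ratios were 0.276 (0.0916 to 0.703) and 0.319 (0.115 to 0.773), and the adjusted P value was 1 in both cases. At 4 h the EGF libraries held 7, 6, 5, and 7 counts, as many as in CSS, and the NRG-1 libraries held 6, 5, 2, and 3, of which the last pair lay below the CSS range.

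*SCG2*, a secretogranin of the same granules, had between 1 and 13 counts per library. The sums over 4 libraries were 18 in FBS, 32 in CSS, 12 after EGF for 4 h, and 14 after NRG-1 for 4 h. The log2 change from FBS to CSS was 0.66 ± 0.51 (adjusted P = 0.270), and that after EGF for 4 h was -1.26 ± 0.55 (adjusted P = 0.0522). *CHGA*, the chromogranin most used in diagnosis, had 0 to 3 counts in all 32 libraries, 39 counts in sum, and no difference could be detected at this depth.

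**Figure D2:**
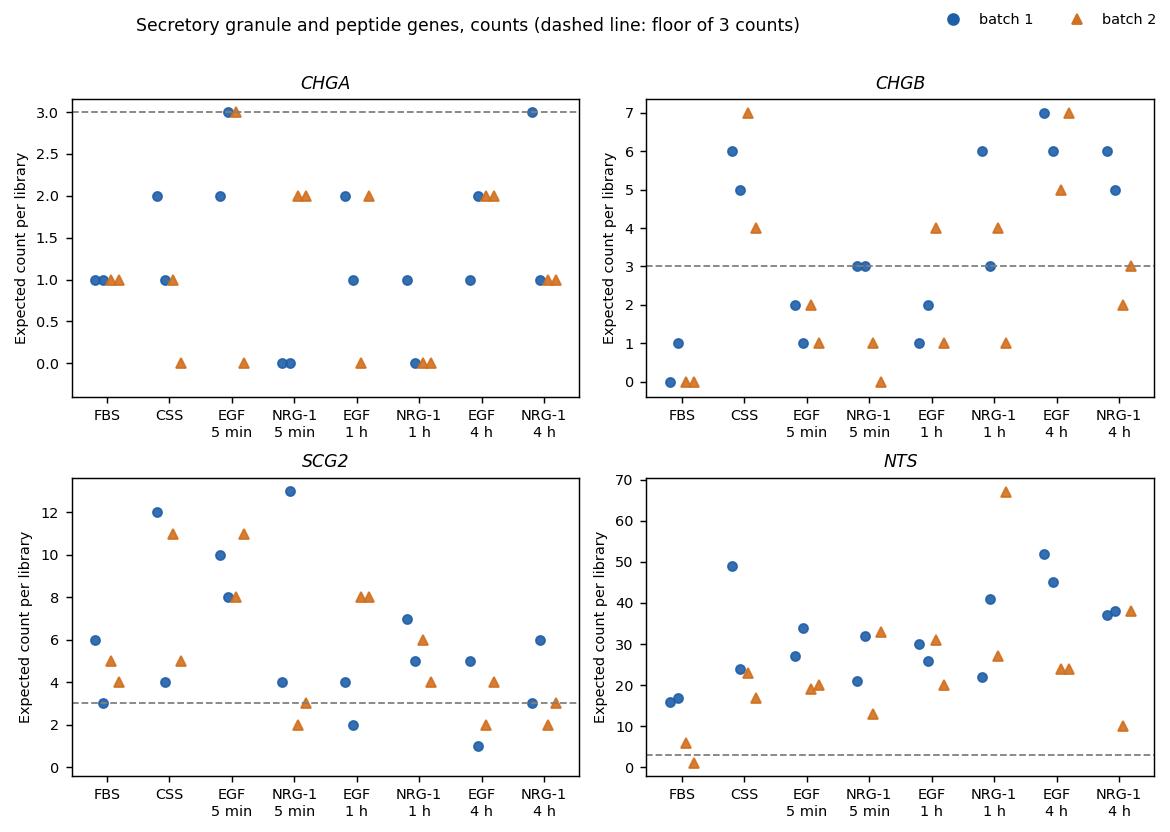
Expected counts per library (y axis) of *CHGA*, *CHGB*, *SCG2*, and *NTS* in the 8 groups (x axis), with circles for batch 1, triangles for batch 2, and a dashed line at the floor of 3 counts. *CHGA* never exceeds 3 counts, *CHGB* exceeds the floor in all CSS libraries and in no FBS library, and *NTS* spans 1 to 67 counts.

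Between CSS and FBS, 6 of the 7 tested panel genes passed the test, 5 higher and 1 lower. Among all genes tested 52.7% passed, 26.8% higher and 26.0% lower, so that a call was common among genes in general. Beyond a log2 change of 1, *CHGB* and *NTS* remained, beside 8.71% of all genes. The median log2 change was 0.47 over the tested panel genes and 0.01 over all genes. In bulk RNA, a change in the share of cells that express a gene and a change in the RNA per cell cannot be told apart.

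At 5 min, 0 of 7 panel genes were called with either ligand by edgeR, beside 0.00588% of all genes for EGF and 0% for NRG-1, and 1 had an unadjusted P value below 0.05 with each ligand (*CHGB*). At 1 h, 0 of 7 were called, when 9.51% (EGF) and 6.73% (NRG-1) of all genes had changed, and 1 gene with EGF (*CHGB*) and 0 with NRG-1 had an unadjusted P value below 0.05. DESeq2 made no call at either time. At 4 h, *ENO2*, *TUBB3*, and *REST* were called with each ligand. All were higher, beside 49.2% of all genes called for EGF (24.6% higher and 24.6% lower) and 42.6% for NRG-1 (21.6% higher and 21.0% lower). Beyond a log2 change of 1, *ENO2* and *TUBB3* remained for EGF, beside 9.56% of genes, and 0 remained for NRG-1, beside 7.41%. A difference of the 4 h effect between batches was called for 0 panel genes, beside 0.141% of all genes for EGF and 0.0883% for NRG-1.

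**Figure D3:**
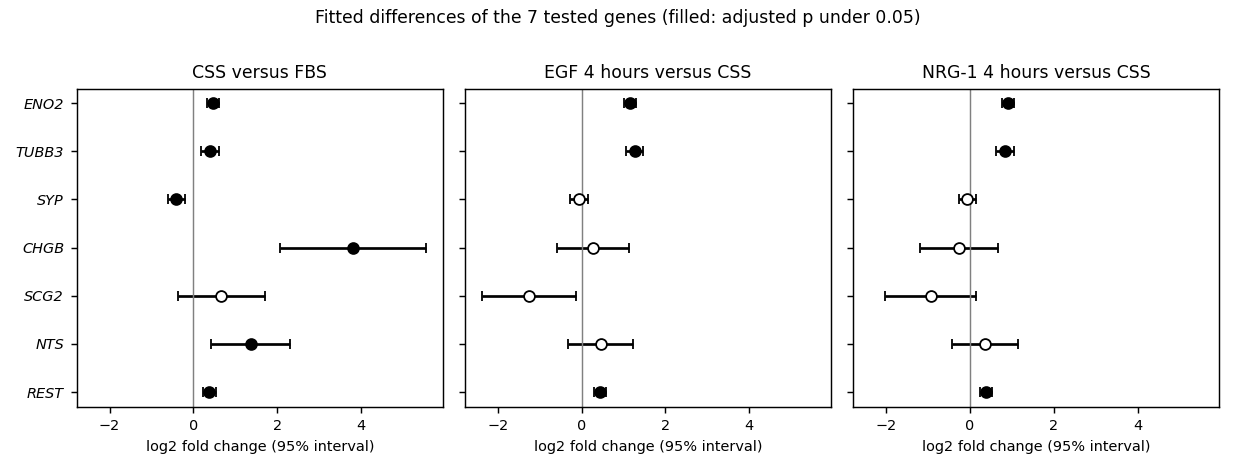
Fitted log2 fold changes (x axis, with 95% intervals) of the 7 tested panel genes (y axis) for CSS versus FBS and for 4 h of EGF or NRG-1 versus CSS, with filled points for an adjusted P value under 0.05. Filled points mark 6 genes in the serum comparison and *ENO2*, *TUBB3*, and *REST* in each ligand comparison, and the widest intervals belong to the low-count genes.

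EGF and NRG-1 were also compared directly at the same dose and time. At 5 min and 1 h, 0 panel genes differed, beside 0% and 1.06% of all genes, and at 4 h *TUBB3* differed, beside 1.66% of all genes. *TUBB3* was higher with EGF in 4 of 4 pairs, by a log2 difference of 0.42 ± 0.10 (adjusted P = 0.0211). The log2 difference stayed between 0.38 and 0.48 in 20 alternative settings. The adjusted P values ran from 0.00275 to 0.179, and the call was lost in 11 of the settings, among them the fits without EGF replicates 1, 3, or 4 or NRG-1 replicates 2 or 3. *ENO2* differed by 0.24 ± 0.07 (adjusted P = 0.0825) and was called when replicates were paired as a replicate block (adjusted P = 0.00233). For *REST* the interval of the log2 difference ran from -0.10 to 0.21.

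The relatives of the marker enzymes and tubulins did not all follow them. *ENO1*, the enolase of most tissues, fell from 1419 to 1129 CPM in CSS (log2 change -0.33) and rose at 4 h by 0.55 with EGF and 0.45 with NRG-1. *ENO3*, the muscle enolase, fell at 4 h (-0.29 and -0.22). *TUBB*, the main beta-tubulin, fell in CSS by 0.55 on the log2 scale, when *TUBB4A* rose by 0.84. At 4 h *TUBB6* went from 1.62 CPM to 12.4 CPM with EGF and 9.56 CPM with NRG-1, and *TUBB4B* and *TUBB2A* rose as well.

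Among the granule and synaptic vesicle genes with an average log2 CPM not below 0, *VGF* changed most at 4 h. *SV2B*, a vesicle gene below that level and named after its values were seen, rose more. It went from 0.0370 CPM in CSS to 1.40 CPM with EGF and 1.56 CPM with NRG-1 (log2 changes 5.14 and 5.29). Calls in the lists below stand beside 52.7% of all genes called in CSS (26.8% higher and 26.0% lower), 49.2% at 4 h of EGF (24.6% and 24.6%), and 42.6% at 4 h of NRG-1 (21.6% and 21.0%). Of 18 genes of granule cargo and processing, 9 were tested. In CSS 2 rose and 3 fell, at 4 h of EGF 3 rose and 1 fell, and at 4 h of NRG-1 2 rose and 0 fell, so that the 5 of 9 called in CSS and the 4 of 9 at 4 h of EGF lay near the shares of all genes. *VGF*, a granule peptide precursor, fell from 2.45 ± 0.226 CPM (SD, n = 4) in FBS to 0.909 ± 0.163 CPM in CSS. It rose to 6.13 CPM after 1 h of EGF and 5.28 CPM after 1 h of NRG-1, and to 23.0 ± 4.24 CPM and 18.7 ± 5.13 CPM at 4 h (log2 changes 4.65 and 4.35). *PAM*, which amidates peptides, rose in CSS (log2 change 0.89), and *GAL*, which encodes galanin, fell in CSS (-0.66) and rose at 4 h of EGF (0.92) and NRG-1 (0.72).

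Of 18 synaptic vesicle and exocytosis genes, 16 were tested, and 9 rose and 2 fell in CSS (26.8% and 26.0% of all genes), 4 rose and 6 fell at 4 h of EGF (24.6% and 24.6%), and 2 rose and 4 fell at 4 h of NRG-1 (21.6% and 21.0%). *CPLX1*, a complexin that clamps vesicle fusion, went from 18.8 ± 3.25 CPM in CSS to 223 ± 49.4 CPM with EGF and 187 ± 50.4 CPM with NRG-1. *VAMP2*, a vesicle SNARE, fell from 53.0 CPM to 39.2 and 42.7 CPM. *RAB3A*, a vesicle GTPase, was already lower at 1 h (log2 changes -0.52 and -0.33). In CSS, *SYNGR3* rose by 1.25 on the log2 scale, whereas *RAB3B* changed by -0.83.

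Of 17 genes of the neuronal cytoskeleton and adhesion, 12 were tested, with 4 higher and 4 lower in CSS, 5 and 2 at 4 h of EGF, and 4 and 3 at 4 h of NRG-1. *STMN3*, a microtubule regulator, rose from 8.57 CPM to 57.8 and 54.2 CPM at 4 h, and *MAP2* to 13.9 and 10.7 CPM from 8.45 CPM. *NEFL*, a neurofilament subunit, rose in CSS (0.68) and fell at 4 h (-0.44 and -0.27).

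Of 18 transcription factors and other regulators tied to the neuroendocrine state, 11 were tested, with 3 higher and 4 lower in CSS, 2 and 3 at 4 h of EGF, and 3 and 3 at 4 h of NRG-1. *EZH2*, the methyltransferase of Polycomb complexes, fell from 79.1 to 34.0 CPM in CSS. *SOX11* rose in CSS (0.50) and fell at 4 h (-1.58 and -1.56), and *ONECUT2* rose at 4 h (0.88 and 0.86). Of this list, 5 genes never exceeded 3 counts in any library.

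Of 18 REST cofactors and regulators, 17 were tested, with 9 higher and 3 lower in CSS, 5 and 4 at 4 h of EGF, and 3 and 4 at 4 h of NRG-1, where 52.7%, 49.2%, and 42.6% of all genes were called. *RCOR1*, the CoREST scaffold, rose with *REST* at 4 h, from 80.3 to 162 and 148 CPM, whereas *PHF21A*, a CoREST partner, fell (-0.49 and -0.40). Of 18 neuronal genes known as REST targets, 16 were tested, with 3 higher and 1 lower in CSS, 2 and 4 at 4 h of EGF, and 1 and 2 at 4 h of NRG-1. In CSS, *AP3B2* (0.52) and *RUNDC3A* (0.50) rose and *GRIN1* fell (-0.55). At 4 h of EGF, *BSN* (-0.52) and *GRIN1* (-0.41) fell. The other targets called there had low levels and were named after their values were seen. Of these, *SEZ6* (-2.29) and *SCN2A* (-2.07) fell, and *GAD1* (1.21) and *CHRNB2* (1.79) rose. The called targets thus moved in both directions. Over the 16 tested, the median log2 change was 0.37 in CSS, -0.34 at 4 h of EGF, and -0.39 at 4 h of NRG-1. Over all genes tested it was 0.01, -0.02, and -0.01. These medians weigh genes with few counts like the others, and *SCN3A* and *CHRM4*, for example, never exceeded 6 counts in a library. All 4 neurotensin receptors were tested, with 3 higher and 1 lower in CSS and 2 lower at 4 h of each ligand. *SORL1*, a sorting receptor, rose from 29.4 to 53.3 CPM in CSS and stood at 38.5 and 36.8 CPM at 4 h.

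**Figure D4:**
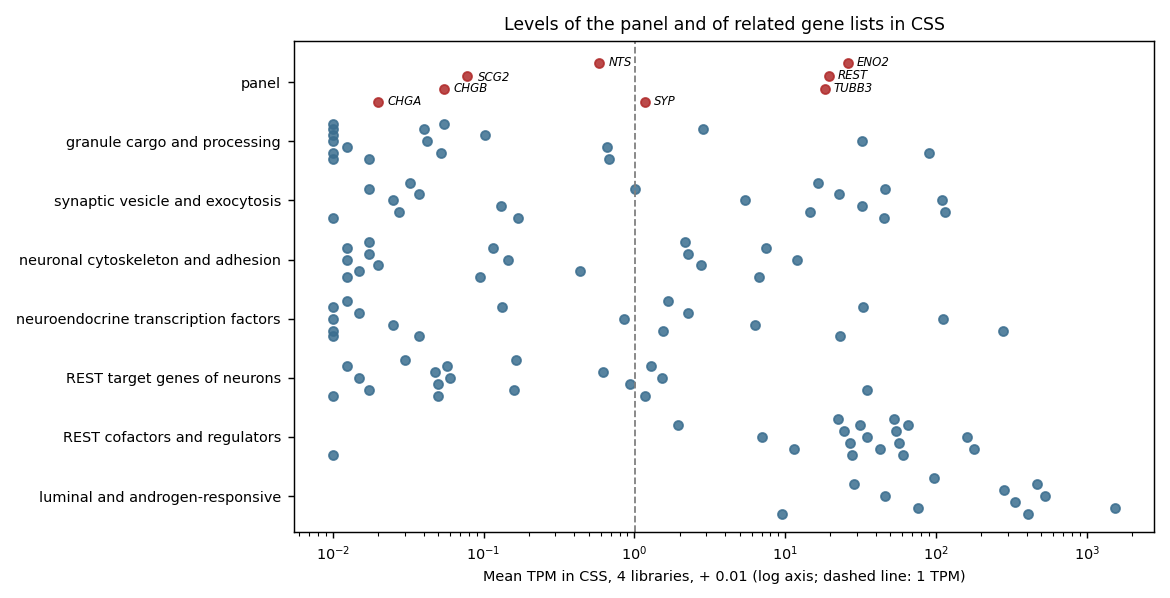
Mean TPM in CSS over 4 libraries plus 0.01 (x axis, log scale) for each gene of the panel and of related lists (y axis), with a dashed line at 1 TPM. At or above 1 TPM lie 4 of 8 panel genes, 3 of 18 granule genes, 10 of 18 synaptic vesicle genes, 17 of 18 REST cofactors, and all 11 luminal genes.

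Luminal and androgen-responsive genes were measured beside the panel. Of 11 such genes, 5 rose and 5 fell in CSS, and 4 rose and 7 fell at 4 h of EGF, and 3 rose and 7 fell at 4 h of NRG-1. *KLK3*, which encodes PSA, went from 2145 ± 163 to 219 ± 43.1 CPM in CSS, and *KLK2* from 231 to 14.6 CPM. *KRT8*, a luminal keratin, rose at 4 h (1.63 and 1.43). Of the 10 markers of other cell types 6 were tested, with 3 higher and 1 lower in CSS and 1 higher and 1 lower at 4 h of each ligand, and their sum was 9.06 to 11.3 TPM in CSS, 16.9 to 20.5 TPM at 4 h of EGF, and 10.3 to 15.9 TPM at 4 h of NRG-1. Of these, *CD68* rose from 3.53 to 14.4 and 9.16 CPM at 4 h, and *VWF* fell. Their part in the panel's changes was not tested.

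Over the 8 group means, after removal of the batch means, *ENO2* and *TUBB3* had a Pearson *r* of 0.992, and *ENO2* and *REST* 0.974. *SYP* had -0.917 with *NTS*, -0.849 with *CHGB*, -0.83 with *REST*, -0.750 with *ENO2*, -0.748 with *TUBB3*, and 0.290 with *SCG2*. These values describe 8 groups that share libraries and a serum step and carry no test. Among tested genes with an average log2 CPM of 1 or more, the genes with the pattern most like *ENO2* were *KIAA1462* (*r* = 0.999) and *SNX9* (0.998), and those most like *TUBB3* were *IRAK2* (0.998) and *CHPF2* (0.997). *AFF1* and *SMAD3* were closest to *REST* (0.997 each), and *SCLY* (0.981) and *H2AFV* (0.978) were closest to *SYP*.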

How the data were processed

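Polyadenylated RNA of 32 LNCaP libraries (8 groups of 4) was sequenced with strand. The authors trimmed reads with Trimmomatic 0.36 and estimated gene values with RSEM around STAR 2.7.0f; the submitters' processing notes name hg19, and the annotation is not given in the sources used here. The authors deposited expected counts, not scaled for depth, and TPM values, scaled for transcript length and library total. RSEM divides reads among related genes.

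The expected counts were first rounded. A gene entered the fit if 3 libraries or more held 5 of its counts or more (16995 of 25498), with *CHGA* left out. The fit was made with edgeR 4.0.16 (R 4.3.3), quasi-likelihood test, TMM, with terms for group and batch, over all 32 libraries. P values were adjusted by Benjamini-Hochberg over all genes tested, and a gene was called at an adjusted P value below 0.05. CPM values are TMM-scaled. The fits were tested on simulated data. Groups and batches came from the sample labels. The deviations of same-numbered libraries correlated in all 112 pairs (*r* from 0.133 to 0.571), and the labels give them a shared batch. No 2 replicates agreed within sampling noise (lowest chi-square per degree of freedom 6.50). Alternatives were DESeq2 1.42.0, other size factors and filters, no batch term, a replicate block, each batch alone, limma 3.58.1 on TPM (log2 scale, 1 or 0.1 added), a log2 fold limit of 1, and each library left out.

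The panel and the related gene lists were chosen with earlier results of these data known. All panel genes were named, with up to 3 called genes of each list with the largest change (average log2 CPM not below 0), and the 2 genes (average log2 CPM not below 1) most like each of *ENO2*, *TUBB3*, *SYP*, and *REST*; not every gene so named is printed.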

Additional observations from a re-analysis of the deposited data

Results flagged for a closer look

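In FBS, the single library with a *CHGB* count (1 count in replicate 2, 0.0145 CPM) stood apart from the others, which had 0. A lone count among counts of 0 is always flagged in this way, so that the flag adds nothing to the counts. After EGF for 1 h, *NTS* was 0.289 CPM in replicate 4 and 0.367 to 0.378 CPM in the others. Of 56 combinations of gene and group, 2 had such a library, and 2.8 would be so by chance at 1 in 20. That rate does not hold for counts at the floor. *TUBB3* differed between EGF and NRG-1 at 4 h by 0.42 on the log2 scale (adjusted P = 0.0211), higher with EGF in 4 of 4 pairs.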

How the results depend on the processing

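Across the alternatives, 1317 values of single panel genes kept their direction where called and their side of the threshold, 23 lost a call, 7 gained one, and none that was called changed direction. With a log2 fold limit of 1, the panel genes called fell from 6 to 2 between CSS and FBS, from 3 to 0 for NRG-1 at 4 h, and from 1 to 0 for EGF against NRG-1 at 4 h. The last comparison had 2 calls with DESeq2 and 2 with the replicate block, 0 without the batch term, 0 in each batch alone, 0 with limma on TPM at any setting, and 0 to 1 when each library was left out. The replicate block changed no other call. EGF at 1 h had 0 to 1 calls when each library was left out (without EGF replicate 3, *CHGB* changed by -1.92, adjusted P = 0.0432). Without the batch term *ENO2* was not called between CSS and FBS (adjusted P = 0.0847). *SCG2* at 4 h of EGF was called in 4 fits that left out a library (adjusted P from 0.0323 to 0.0404). The cause of these changes was not tested. Depth limits *CHGA*, *CHGB*, and *SCG2*, whose counts lie at or near the floor.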
